A study of Mus musculus with 18 samples.

Results

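The red cell membrane and skeleton genes are 8 genes, Sptb, Ank1, Epb41, Epb42, Slc4a1, Rhag, Rhd and Kel, taken by symbol from the authors' deposited tables for spleen (21830 genes) and bone marrow (14423 genes). All 8 had a row in both tables. RNA came from dissociated cells of C57BL/6 mice and was read by QuantSeq, which counts tags near the poly(A) tail, so a level does not scale with transcript length. In spleen, 5 libraries from Trex1-/-;Sting1gt/gt (dKO) mice that had been lethally irradiated and given Cgas-/- marrow were compared with 5 libraries from dKO mice irradiated in the same way and given dKO marrow, 12 weeks after transplantation. In bone marrow, 4 libraries of Cgas-/- mice were compared with 4 of untransplanted dKO mice. Cgas-/- cells lack the DNA sensor cGAS. The dKO cells lack the exonuclease TREX1 and, through the goldenticket mutation (gt) of Sting1, make no working STING, so neither genotype can pass a signal from cGAS to STING within its own cells. Host cells of the spleen were dKO in both transplanted groups, and the age of the mice was not stated in the labels used here.

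The red cell membrane is held in shape by a mesh of spectrin tetramers beneath the lipid bilayer. Ankyrin ties this mesh to the anion exchanger band 3, and protein 4.1 joins spectrin to short actin filaments and to glycophorin C. Rh proteins and the Kell glycoprotein are carried in or beside these complexes as blood group antigens. In humans, defects of spectrin, ankyrin, band 3 or protein 4.2 cause hereditary spherocytosis. The genes are switched on while erythroblasts mature, which in the mouse happens in bone marrow and also in the red pulp of the spleen. In bulk RNA of this kind, fewer erythroid cells and less RNA per erythroid cell cannot be told apart.

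Members of the group are spread over the genome, and none lies on chromosome 9, which carries Trex1. On GRCm38 (GENCODE M21, the assembly of mm10, counted from 1), Sptb is on chromosome 12 at 76580488 to 76710547, Ank1 on chromosome 8 at 22974844 to 23150497 and Epb41 on chromosome 4 at 131923413 to 132075321. Epb42 is on chromosome 2 at 121017891 to 121037072 and Slc4a1 on chromosome 11 at 102348824 to 102366203. Rhag is on chromosome 17 at 40811126 to 40840754, Rhd on chromosome 4 at 134864536 to 134896172 and Kel on chromosome 6 at 41686330 to 41704339. The last 1000 bases of Sptb are overlapped by Plekhg3 and those of Ank1 by Gm15816, both on the opposite strand. No source used here gives the counting strand, so values of Sptb and Ank1 carry that uncertainty.

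Promoter sequence was read from RefSeq (GRCm38.p6) for 6 of the 8 genes, over the 250 bases before each annotated start. Ank1 and Slc4a1 had no entry. The letters AGATAA or else AGATAG, and also TGATAA or else TGATAG, bound by GATA factors such as the erythroid regulator GATA1, were searched on both strands. The 6 genes have 8 annotated starts, 3 of them in Epb41. The letters were present in 5 of these 8 windows, 1 each of Epb41, Epb42, Kel, Rhag and Rhd, and in 26.5% of all 32851 promoters of the same length. The letters CCACACCC or else CCACCCC, and also CCCCACCC, can overlap one another. They share the letters CACCC, as do many sites of factors such as KLF1. Among the 6 they were present only before Sptb, against 18.9% of all promoters. No member window held both motifs, so the 3 surface protein genes whose GATA letters lay nearest the start are shown, chosen after the sequences were seen. Capitals mark the GATA letters, 56 and 19 bases before the start in Kel (chr6:41704326-41704575, minus strand), 31 in Rhag (chr17:40810899-40811148, plus strand) and 43 in Rhd (chr4:134864286-134864535, plus strand). A match is a description of letters and not of a bound site.
Kel: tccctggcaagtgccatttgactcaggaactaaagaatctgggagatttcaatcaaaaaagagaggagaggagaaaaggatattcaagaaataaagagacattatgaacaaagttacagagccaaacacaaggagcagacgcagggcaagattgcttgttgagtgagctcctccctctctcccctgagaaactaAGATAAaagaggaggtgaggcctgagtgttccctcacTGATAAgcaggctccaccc
Rhag: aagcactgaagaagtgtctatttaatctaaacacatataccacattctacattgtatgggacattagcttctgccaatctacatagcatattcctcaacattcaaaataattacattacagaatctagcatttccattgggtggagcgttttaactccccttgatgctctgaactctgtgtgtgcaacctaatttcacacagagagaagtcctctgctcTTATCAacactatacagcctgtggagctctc
Rhd: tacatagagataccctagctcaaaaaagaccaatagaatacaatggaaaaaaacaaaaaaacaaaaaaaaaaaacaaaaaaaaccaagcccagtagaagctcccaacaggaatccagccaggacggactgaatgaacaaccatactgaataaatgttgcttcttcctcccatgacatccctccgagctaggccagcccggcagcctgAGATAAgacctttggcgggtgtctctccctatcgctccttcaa

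The direction of each table was read from the targeted genes. The authors' deposited tables gave Trex1 log2 fold changes of 2.71 ± 0.199 in spleen and 1.45 ± 0.178 in bone marrow (standard error, as throughout), and Cgas values of -0.92 ± 0.217 in spleen and -1.13 ± 0.155 in bone marrow, so folds are Cgas-/- marrow over dKO marrow. Library depths are unknown. Summed mean normalized counts were 4.56e+06 in spleen and 9.71e+06 in bone marrow. All 5 B cell, 8 red pulp macrophage and 9 neutrophil granule genes and 4 globins were listed in both tables, so their presence alone does not tell the tissues apart. Within spleen the summed means were 12883 for B cell genes and 4762 for neutrophil granule genes, and within bone marrow 3586 for B cell genes and 264735 for neutrophil granule genes. Group means below were derived from the authors' deposited mean and fold change of each gene, and are exact only where libraries weigh equally. Because single libraries were not used here, neither overlap between groups nor the order of libraries can be given.

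In spleens of recipients of Cgas-/- marrow, all 8 genes lay below 0 on the log2 scale relative to recipients of dKO marrow, and their median fold change was -1.07. The values ran from -1.39 for Rhag to -0.05 for Epb41. By the authors' deposited table none of the 8 passed (DESeq2 adjusted p, threshold 0.05), where 0.133% of the 21830 genes passed. At an unadjusted p under 0.05, 1 of the 8 was lower and none was higher, beside 1.85% of all genes lower. Over all genes of the table the median was -0.03, and 55.0% were below 0. Only 5 of the 8 had a mean normalized count of at least 20 in spleen.

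**Figure D1:**
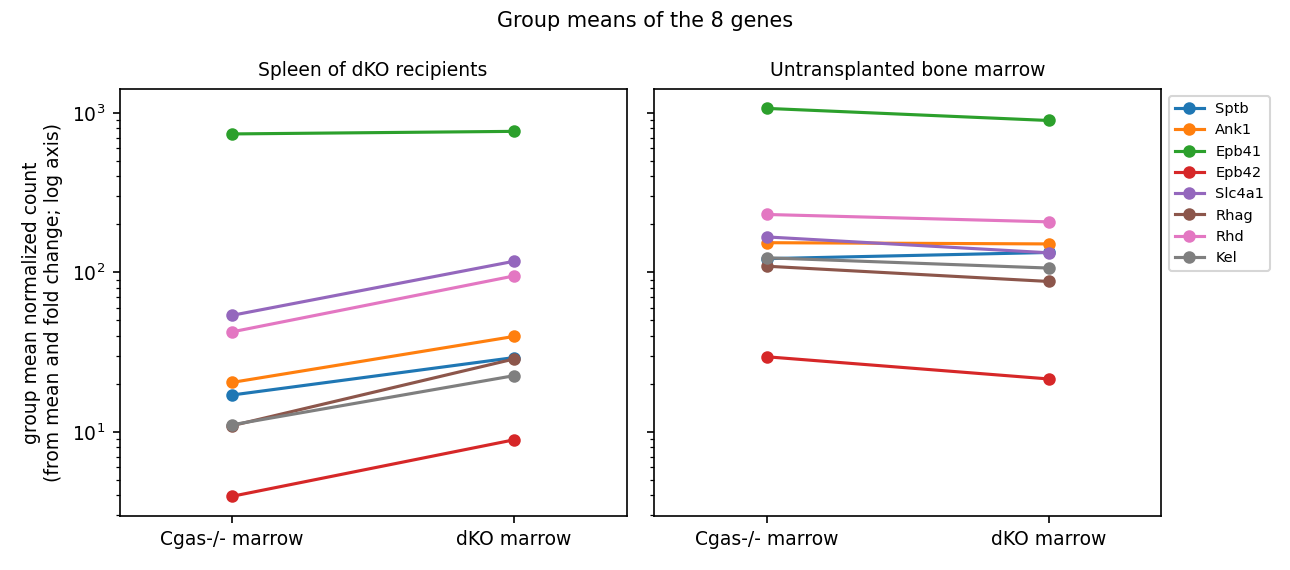
Group mean normalized counts (log axis) of the 8 genes, derived from the deposited mean and fold change, with Cgas-/- marrow to the left of dKO marrow in spleen and in bone marrow. No error bars are drawn because values per library were not used, and in spleen every derived mean is lower with Cgas-/- marrow, that of Epb41 by the least (739.5 with Cgas-/- marrow, 768 with dKO marrow).

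Of the skeleton genes, Sptb, which encodes beta spectrin, had derived means of 17.0 in Cgas-/- marrow recipients and 29.3 in dKO marrow recipients. Its log2 fold change in the authors' deposited table was -0.78 ± 0.503 (unadjusted p = 0.121, DESeq2). Ank1, the ankyrin that anchors spectrin to band 3, had derived means of 20.5 in Cgas-/- marrow recipients and 39.7 in dKO marrow recipients, with -0.96 ± 0.676 in the authors' deposited table (DESeq2 unadjusted p = 0.157). Epb41, which encodes protein 4.1, stood apart from the rest. It was the most abundant of the 8, with derived means of 739.5 in Cgas-/- marrow recipients and 768 in dKO marrow recipients. Its log2 fold change was -0.05 ± 0.102 in the authors' deposited table, with a 95% interval from -0.25 to 0.15. Epb41 is also transcribed in many nucleated cells.

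The anchor protein genes had similar values. Slc4a1, which encodes the chloride and bicarbonate exchanger band 3, had derived means of 53.9 in recipients of Cgas-/- marrow and 118 in recipients of dKO marrow. The authors' deposited table gave it -1.13 ± 0.724, with a 95% interval from -2.54 to 0.29. Epb42 encodes protein 4.2, a transglutaminase relative without enzyme activity that stabilises the contact of ankyrin with band 3. It was the least abundant member, with derived means of 3.95 in Cgas-/- marrow recipients and 8.92 in dKO marrow recipients, and -1.18 ± 0.774 in the authors' deposited table.

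Among blood group genes, Rhag had the lowest fold change of the 8. It encodes the Rh-associated glycoprotein, a channel of the ammonium transporter family that Rh protein needs to reach the surface. Derived means were 10.9 in recipients of Cgas-/- marrow and 28.7 in recipients of dKO marrow. The authors' deposited table gave -1.39 ± 0.615, with a 95% interval from -2.59 to -0.18, an unadjusted p of 0.0238 and a DESeq2 adjusted p of 0.999997. Rhd, the Rh protein itself, had derived means of 42.4 in Cgas-/- marrow recipients and 95.1 in dKO marrow recipients, and -1.16 ± 0.743 in the authors' deposited table. Kel, the Kell zinc endopeptidase, had derived means of 11.1 in Cgas-/- marrow recipients and 22.5 in dKO marrow recipients, and -1.02 ± 0.661 in the authors' deposited table. The intervals of Rhd (-2.62 to 0.29) and Kel (-2.32 to 0.27) both included 0.

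**Figure D2:**
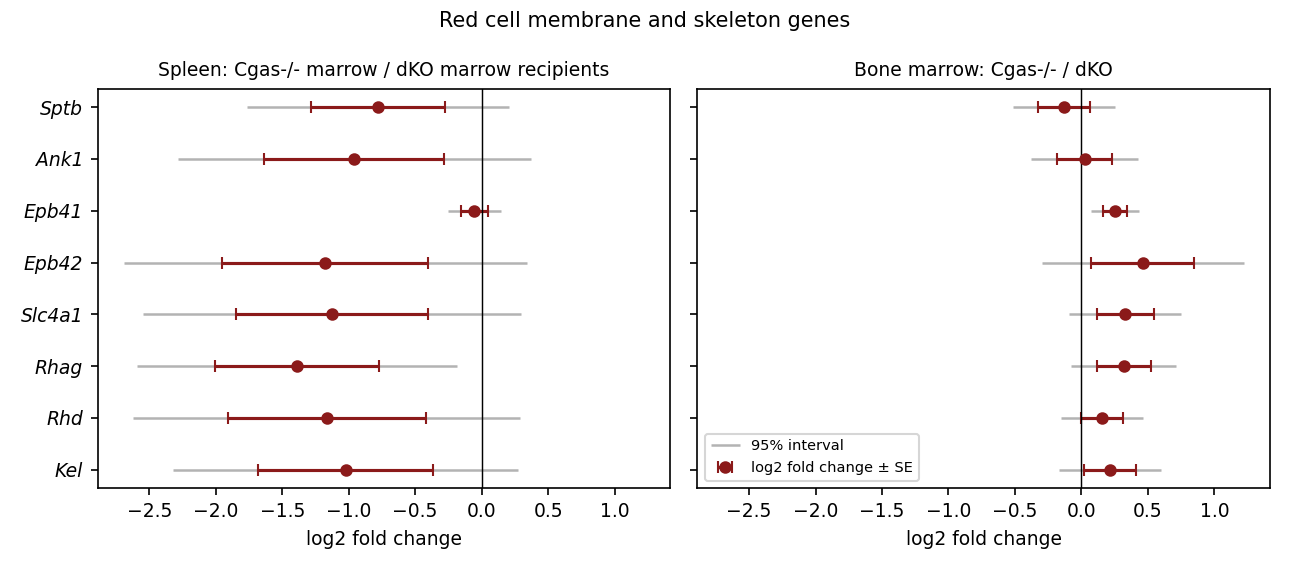
Log2 fold changes of the 8 genes with their standard errors (dark bars) and 95% intervals (grey) in spleen (left) and bone marrow (right), from the deposited tables. In spleen 7 of the 8 intervals include 0 and all estimates are below it, and in bone marrow the intervals are narrower and 7 of the 8 estimates are above it.

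Standard errors of these genes were large in spleen for their level. Slc4a1 had a standard error of 0.724, which was 4.34 times the median (0.167) of the 2465 genes with a mean within 1.5-fold of its own. Of those genes, 99.9% had a smaller one. For Rhd the ratio was 4.05, for Ank1 2.44 and for Rhag 1.802, and the other members had 1.78 (Kel), 1.59 (Sptb), 1.31 (Epb42) and 1.16 (Epb41). At a given mean and number of libraries, a larger standard error means more spread between libraries of the same group. In bone marrow the ratios of the 8 genes ran from 0.945 to 1.21, against a median of 1.79 in spleen. Wide spread in spleen was not confined to red cell genes. The median ratio was 3.91 for globins, 3.52 for neutrophil granule genes, 3.89 for mature neutrophil genes and 3.05 for red pulp macrophage genes, and 1.12 for B cell genes. The part of these cell types in the values above was not tested.

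**Figure D3:**
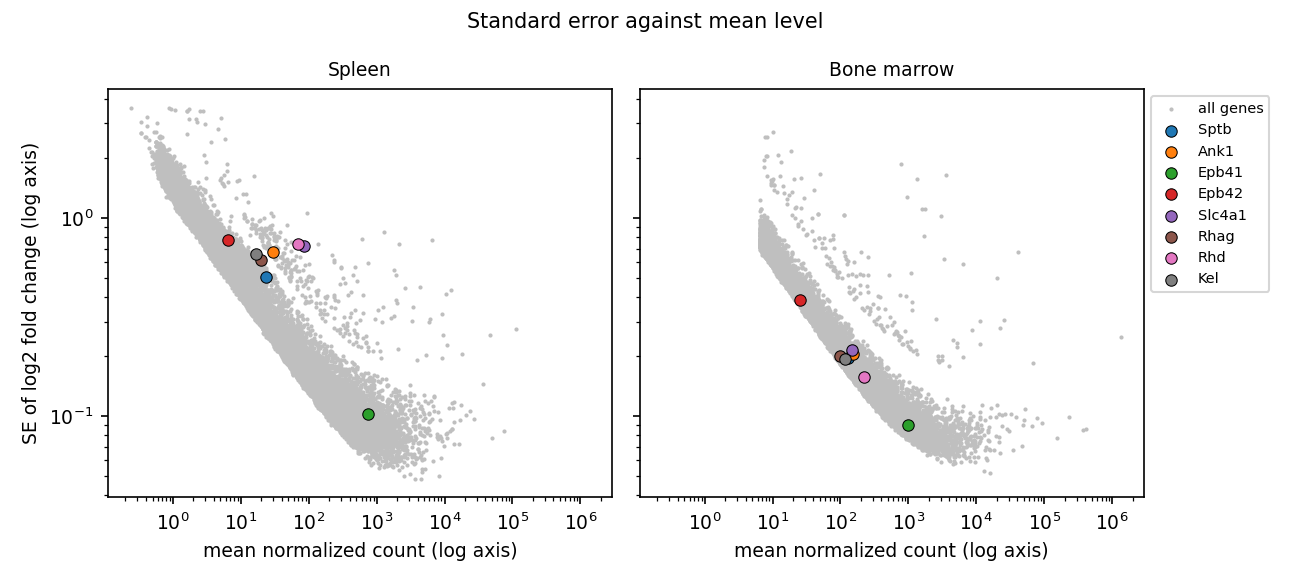
Standard error of the log2 fold change against mean normalized count (both log axes) for all genes (grey) and the 8 genes (coloured) in spleen (left) and bone marrow (right). Slc4a1 and Rhd lie far above the band of genes of like mean in spleen, at ratios of 4.34 and 4.05, and all 8 lie within the band in bone marrow.

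In bone marrow of Cgas-/- mice, 7 of the 8 genes had a log2 fold change above 0 relative to dKO marrow, with a median of 0.23. All 8 had a mean normalized count of at least 20. By the authors' deposited table none passed there either (DESeq2 adjusted p, threshold 0.05), where 0.534% of the 14423 genes passed. At an unadjusted p under 0.05, 1 of the 8 was higher and none lower, beside 4.19% of all genes higher. Over all genes the median was -0.0023, and 49.5% were above 0.

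Epb41 was measured most precisely. Its derived means were 1069 in Cgas-/- marrow and 898 in dKO marrow. The authors' deposited table gave it 0.25 ± 0.0907, with a 95% interval from 0.07 to 0.43, an unadjusted p of 0.00543 and a DESeq2 adjusted p of 0.247. Epb42 had the highest fold change, 0.46 ± 0.387 in the authors' deposited table, with derived means of 29.6 in Cgas-/- marrow and 21.5 in dKO marrow. Slc4a1 had derived means of 167 in Cgas-/- marrow and 133 in dKO marrow, and Rhag 109 in Cgas-/- marrow and 87.8 in dKO marrow. Both had like fold changes in the authors' deposited table, 0.33 ± 0.215 for Slc4a1 and 0.32 ± 0.202 for Rhag, and intervals that included 0. Kel (0.21 ± 0.195) and Rhd (0.15 ± 0.158) were closer to 0 in the authors' deposited table. The spectrin and ankyrin genes had the lowest values, with 0.03 ± 0.206 for Ank1 and -0.13 ± 0.196 for Sptb in the authors' deposited table, where the interval of Sptb ran from -0.51 to 0.25. Derived means of Sptb were 122 in Cgas-/- marrow and 134 in dKO marrow.

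Across members, Epb41 had the highest mean level and Epb42 the lowest in both tissues. After Epb41, spleen had Slc4a1 at 85.7 and Rhd at 68.8 mean normalized counts, well above the 16.8 to 30.1 of Kel, Rhag, Sptb and Ank1. In bone marrow Rhd came next at 219, and Ank1, Slc4a1, Sptb, Kel and Rhag followed between 152 and 98.7. Whether neighbours in these orders differ beyond their spread could not be tested without values per library. The tables were normalized separately, so levels are not set against each other across tissues.

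The fold change in spleen was lower than in bone marrow for all 8 genes. The comparisons share no library, and the difference was tested for each of 13853 genes in both tables as a z value with its normal p. The median difference of the members was -1.28 on the log2 scale, beside -0.01 over all genes, of which 52.4% were below 0. None of the 8 differed at an adjusted p of 0.05, where 0.0577% of genes did. At an unadjusted p under 0.05, 2 of the 8 were lower in spleen, beside 2.60% of all genes. Rhag had a difference of -1.71 ± 0.647 (unadjusted p = 0.00835, adjusted p = 0.780, z test over all genes). Epb41 had -0.31 ± 0.137 (unadjusted p = 0.0252, adjusted p = 0.973, z test over all genes). For Slc4a1 the difference was -1.46 ± 0.755, with a 95% interval from -2.94 to 0.02, and for Epb42 -1.64 ± 0.865 with an interval from -3.33 to 0.06. Relative to its error the difference was smallest for Sptb, at -0.65 ± 0.540. The intervals of the other members also included 0, and reached -2.37 for Ank1, -2.81 for Rhd and -2.59 for Kel.

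**Figure D4:**
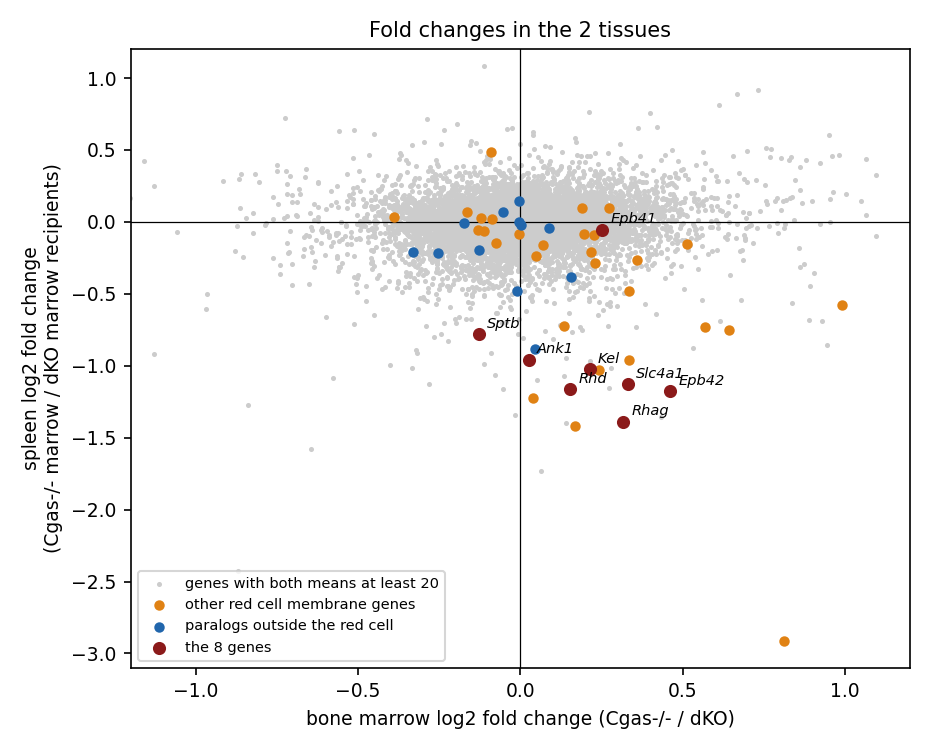
Log2 fold change in spleen (vertical axis) against bone marrow (horizontal axis) for genes with a mean of at least 20 in both tables (grey), other red cell membrane genes, paralogs used outside the red cell, and the 8 genes (named), the coloured genes at any mean. Of the 8, 7 lie between -1.39 and -0.78 in spleen, Epb41 lies near 0, and paralogs lie around 0 on the horizontal axis. Grey genes beyond the axis limits are not drawn.

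A list of 30 other genes of the red cell membrane had a median nearer 0 in spleen than the members. Of 30 measured there, 23 were below 0 with a median of -0.18, and the authors' deposited table had no DESeq2 call among them, with 2 lower and 1 higher at an unadjusted p under 0.05. In bone marrow 20 of 29 were above 0 with a median of 0.19. The authors' deposited table again had no DESeq2 call, with 4 higher and 2 lower at an unadjusted p under 0.05. Over all genes, 3.02% in spleen and 8.85% in bone marrow had an unadjusted p under 0.05 in either direction (DESeq2). Sema7a, a blood group semaphorin also made by lymphocytes, was at 0.49 ± 0.184 in spleen, and Abcg2, a porphyrin and drug exporter, was at -0.72 ± 0.279 there, by the authors' deposited table. The bone marrow value of Atp2b4, a plasma membrane calcium pump, was 0.36 ± 0.106 (DESeq2 adjusted p = 0.0927) by the authors' deposited table. Of the partners of the members, 2 were chosen after their values were seen. Xk, whose protein is bonded to Kell, was at -0.16 ± 0.153 in spleen and 0.07 ± 0.177 in bone marrow in the authors' deposited tables. Gypc, the glycophorin held by protein 4.1, was at -0.06 ± 0.173 in spleen and -0.11 ± 0.241 in bone marrow in the authors' deposited tables.

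Paralogs that serve other cells were set beside the members. Of 18 listed, 15 were measured in spleen, 12 of them below 0 with a median of -0.20, and 13 in bone marrow, 4 above 0 with a median of -0.01. No paralog had an unadjusted p under 0.05 by DESeq2 in either of the authors' deposited tables. Sptan1, the alpha spectrin of non-erythroid cells, was at 0.15 ± 0.0957 in spleen and -0.0041 ± 0.101 in bone marrow in the authors' deposited tables. Tgm2, the transglutaminase related to protein 4.2, was at -0.22 ± 0.145 in spleen and -0.25 ± 0.165 in bone marrow, and Epb41l2, a protein 4.1 relative, at -0.0043 ± 0.118 in spleen and -0.17 ± 0.115 in bone marrow, in the authors' deposited tables. The median difference between tissues was -0.0094 over the 12 paralogs in both tables, with 6 below 0. Over the 29 other red cell membrane genes in both tables it was -0.32, with 22 below 0 and 9 lower at an unadjusted p under 0.05. For the 4 globins it was -1.49, with all 4 below 0 and lower at an unadjusted p under 0.05, and for the 8 erythroid regulators -1.06, with all 8 below 0 and 3 lower at an unadjusted p under 0.05. Of all 13853 genes in both tables, 2.60% were lower at an unadjusted p under 0.05 (z test). No gene of these lists had an adjusted p under 0.05 in the z test.

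Most other erythroid genes had a fold change below 0 in spleen and above 0 in bone marrow. Globins were all 4 below 0 in spleen (median -0.62) and all 4 above 0 in bone marrow (median 0.89), where the authors' deposited table had Hbb-bt past the threshold at 0.84 ± 0.223 (DESeq2 adjusted p = 0.0370). The globin copies are near identical, so their single values are uncertain. Of 8 haem synthesis genes, 7 were below 0 in spleen (median -0.31) and 8 above 0 in bone marrow (median 0.20). Of 8 erythroid regulators, 8 were below 0 in spleen (median -0.81) and 6 above 0 in bone marrow (median 0.23). Tfrc, the transferrin receptor and not a transcription factor, had the smallest unadjusted p of that list in both tissues (DESeq2). It was at -0.39 ± 0.188 in spleen and 0.25 ± 0.0924 in bone marrow in the authors' deposited tables. Of 9 late erythroid genes measured, 8 were below 0 in spleen (median -0.33) and 8 above 0 in bone marrow (median 0.23). None of these erythroid lists held a DESeq2 call in the spleen table that the authors deposited.

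Markers of 5 other cell types were read in the same way, and no gene of these lists passed the test in either of the tables deposited by the authors. All 9 neutrophil granule genes were below 0 in spleen (median -0.63), with summed derived means of 3866 in Cgas-/- marrow recipients and 5658 in dKO marrow recipients. In bone marrow all 9 were below 0 too, with a median of -0.08 and sums of 253905 in Cgas-/- marrow and 275565 in dKO marrow. For mature neutrophil genes 5 of 6 were below 0 in spleen (median -0.18) and in bone marrow (median -0.12), and for red pulp macrophage genes 7 of 8 were below 0 in spleen (median -0.16) and 3 of 8 in bone marrow (median 0.06). All 5 B cell genes and all 6 T cell genes were measured, with medians of 0.05 in spleen and 0.04 in bone marrow for B cell genes, and of 0.10 in spleen and -0.06 in bone marrow for T cell genes. The part of these 5 cell types in the members' values was not tested.

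**Figure D5:**
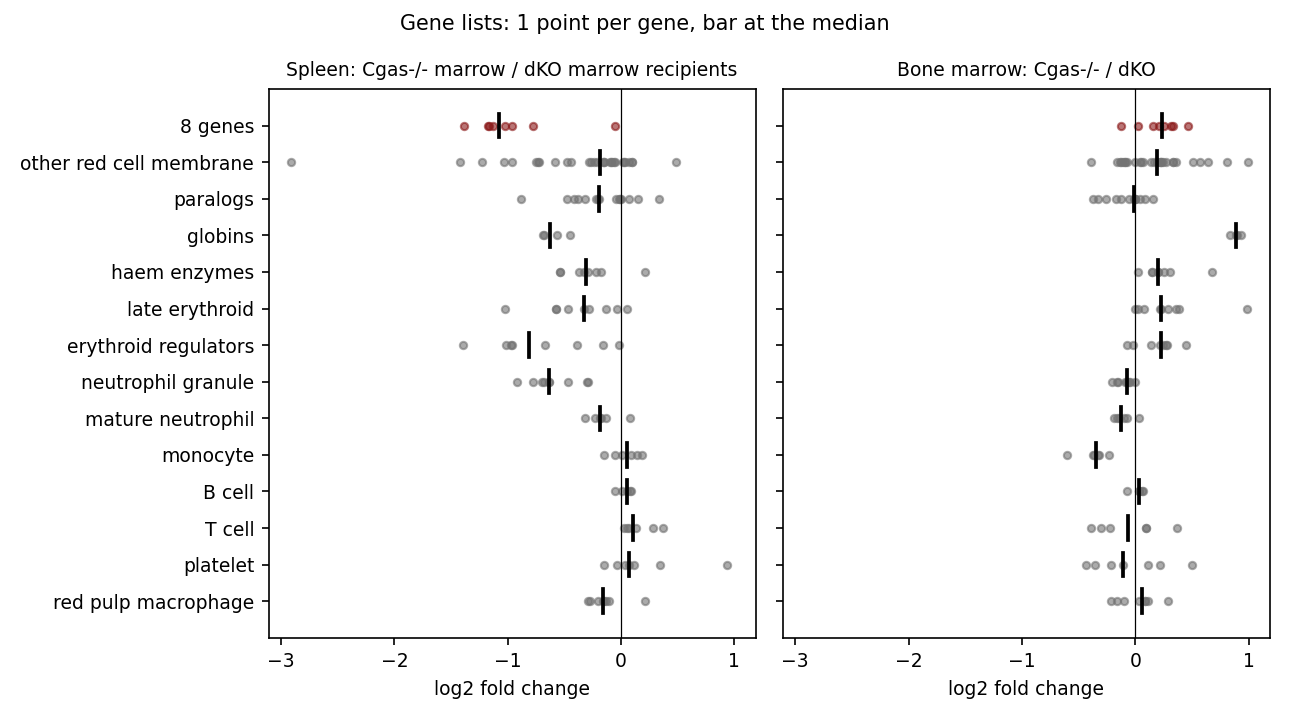
Log2 fold change of every measured gene of 14 lists (points) with the list median (black bar), in spleen (left) and bone marrow (right). The 8 membrane genes, globins and erythroid regulators lie left of 0 in spleen, with medians of -1.07, -0.62 and -0.81, and mostly right of 0 in bone marrow, and neutrophil granule genes lie left of 0 in both.

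The genes whose pair of fold changes lay nearest the members' medians were sought among 10059 genes with a mean of at least 20 in both tables. Likeness here is a distance over only 2 comparisons. Add2, which encodes the beta adducin of the spectrin and actin junction, was nearest, at -1.03 ± 0.592 in spleen and 0.24 ± 0.172 in bone marrow in the authors' deposited tables. Next came the carbonic anhydrase gene Car2 (-1.02 in spleen, 0.22 in bone marrow), the immunoglobulin heavy chain gene Ighg2b (-1.01 in spleen, 0.21 in bone marrow), the erythroid factor gene Gata1 (-1.01 in spleen, 0.28 in bone marrow), by the authors' deposited tables. The last were the carbonic anhydrase gene Car1 (-1.16 in spleen, 0.27 in bone marrow) and the mast cell and basophil protease gene Prss34 (-1.07 in spleen, 0.14 in bone marrow), by the authors' deposited tables. The bone marrow value of Ighg2b had a standard error of 1.02 in the authors' deposited table. None of these 6 passed the DESeq2 test in either table.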

How the data were processed

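QuantSeq forward libraries were made from dissociated bone marrow and spleen, per the labels' protocols, and each library was grouped by its label (18 in all). The labels do not say that each library is from another mouse, so the spread behind the p-values may be technical. Tools of the authors were bcl2fastq 1.8.4, STAR 2.6.1, Partek and DESeq2 on mm10, per the submitters' processing notes. How tags were counted, with which annotation and on which strand, is not given in the sources used here. Per the file headers, each deposited table holds a mean normalized signal per gene (counts divided by size factors, averaged over libraries), a log2 fold change with its standard error, a Wald score, and a p-value with its Benjamini-Hochberg adjustment, all by the authors. The Wald score, the p-value and its adjustment were checked by recomputing them from the other columns. Without values per library, the mean, the fold change and its standard error could not be recomputed. No count test was run, and depth per library is unknown.

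Members and lists were chosen with earlier results of these data known. All 8 members are named, with the 2 genes of smallest p per tissue in lists described by gene, and the 6 genes nearest the members' medians. Some genes that this rule names are counted in their lists but not reported here. Genes named outside it carry a remark that they were picked after seeing values. The tissue difference was the spleen log2 fold change minus that of bone marrow, divided by its standard error (both errors in quadrature). It had a two-sided normal p adjusted over 13853 genes, 77 of them joined through an older symbol. The code was run on simulated fold changes with normal noise of the deposited standard errors. That noise is what the z test assumes, so the run cannot show whether those errors are right. Derived group means solve the mean and fold change for 2 equal groups. Alternatives were adjustment over genes with a mean of at least 20, centring, a t reference and a threshold of 0.1. Python 3.11.15, pandas 2.3.3, numpy 2.4.6, scipy 1.17.1, statsmodels 0.14.6 and matplotlib 3.10.9 were used.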

Additional observations from a re-analysis of the deposited data

Results flagged for a closer look

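Trex1, read only to fix the direction of the tables, differed between the tissues. It was at 2.71 in spleen and 1.45 in bone marrow in the authors' deposited tables, a difference of 1.26 ± 0.267 (z test, adjusted p = 0.00434 over all genes). Host cells were dKO in both spleen groups. No member of the red cell membrane and skeleton group had an adjusted p under 0.05 in that test.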

How the results depend on the processing

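The count of members past the threshold was 0 of 8 in spleen, in bone marrow and for the difference between tissues, with DESeq2 or the z test, and was 0 of 8 with centring, with a t reference and with a threshold of 0.1. With only genes of a mean of at least 20 it was 0 of 8 in bone marrow and 0 of 5 in spleen and for the difference, where Epb42, Rhag and Kel fall below that mean and were not covered. At an unadjusted p under 0.05 (DESeq2), 1 of the 8 was lower in spleen, beside 1.85% of all genes. In bone marrow 1 was higher, beside 4.19% of all genes. For the difference 2 were lower in the z test, beside 2.60% of all genes. The lowest adjusted p of any member under these settings was 0.217 in bone marrow (Epb41), 0.99995 in spleen (all 8 members tied) and 0.780 for the difference (Rhag). The median log2 fold change in spleen was -0.96 over the 5 members with a mean of at least 20 and -1.08 after centring, and 0.24 in bone marrow after centring, and these settings for the median were chosen after seeing the data. All 106 recomputed values were classed as unchanged. For a single gene that class means only that it stayed on the same side of the threshold, so it does not measure stability. Epb41 in bone marrow was so classed, although its adjusted p was 0.247 as deposited (DESeq2) and 0.986 with the t reference. Direction could shift only with centring or in a median over fewer members, because the other settings reuse the deposited fold changes. No paired analysis was possible because the files used hold 1 fitted value per gene and comparison and no values per library. For the same reason, leaving out each replicate was not run. Low means limit Epb42, Kel and Rhag in spleen.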

Other observations

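Genes of dividing cells and of other blood lineages were read beside the erythroid lists. Of 13 proliferation genes, 12 were below 0 in spleen (median -0.21) and 8 in bone marrow (median -0.02), with no DESeq2 call in the authors' deposited tables. All 4 progenitor genes were above 0 in bone marrow (median 0.29), with Flt3, a receptor of early progenitors, past the test in the authors' deposited table at 0.72 ± 0.153 (DESeq2 adjusted p = 0.00177), and 3 of the 4 were below 0 in spleen (median -0.11). Of 6 monocyte genes, 4 were above 0 in spleen (median 0.05) and all 6 below 0 in bone marrow (median -0.35). Of these, 3 fell in bone marrow by the authors' deposited table, among them Ly6c2 at -0.33 ± 0.0794 (DESeq2 adjusted p = 0.0116) and Ms4a4c at -0.60 ± 0.150 (DESeq2 adjusted p = 0.0214). Platelet genes had medians of 0.07 in spleen and -0.11 in bone marrow, natural killer cell genes -0.25 in spleen and -0.0075 in bone marrow, and plasma cell genes -0.24 in spleen and -0.27 in bone marrow. The authors' deposited tables had no DESeq2 call in these 3 lists.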
